A study of Mus musculus with 12 samples.

Results

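The mevalonate and sterol synthesis genes, together with the regulators of sterol regulatory element binding protein 2 (SREBP2), were followed in bone marrow-derived macrophages (BMDMs) of wild-type and Nlrp3-/- mice. The set held 28 of the 55335 genes in the table. It was chosen by gene symbol, as a pathway proposed with the difference between the stimulated genotypes already known, so values from that difference, and from the interaction that contains it, describe the set and test nothing about it. The stimulation contrasts within each genotype use the same stimulated libraries. Their counts and p-values for the set are therefore not independent of that choice either. The interaction also contains the difference between the controls, and earlier results of these data were known. Values of that contrast are thus no independent test of the set. The set does not hold every enzyme of the pathway. It comprised 21 enzymes ordered by their step, 4 genes of SREBP2 regulation (Srebf2, Scap, Insig1 and Insig2) and 3 genes of sterol transport or sterol response (Stard4, Tmem97 and Arv1). All 28 passed the filter on low values (3 or more libraries with an FPKM no lower than 1), as did 12622 genes in all.

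RNA was sequenced in 12 libraries, 3 in each of 4 groups, the controls and the stimulated (LPS+ATP) cells of either genotype. Both genotypes were cultured from marrow with macrophage colony-stimulating factor for 7 days, and the methods give donors of 8 weeks of age on C57BL/6. Controls were left without treatment. Stimulated cells received lipopolysaccharide (LPS, a bacterial wall component) for 4 h and then ATP for 30 min per the labels, whereas the methods for BMDMs give 12 h and 2 h, so the duration is not settled. The null allele is constitutive, present in every cell of the donor. Every library of the null carried an Nlrp3 FPKM of 0, against 9.68 ± 0.42 (SD, n = 3) in wild-type controls and 32.9 ± 0.80 in stimulated wild-type cells. The macrophage markers were high in every group, with a summed FPKM over 7 genes from 10580 to 21046, most of it Lyz2. Of the 7, 6 had a lower mean log2(FPKM + 1) in Nlrp3-/- than in wild-type controls (Cd68 at 877 against 1450 FPKM, Csf1r at 164 against 253) and 7 with LPS+ATP (Cd68 at 620 against 814), with log2 differences under the fold limit used below, and their part in the results was not tested.

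Cells make cholesterol from acetyl-CoA through mevalonate, isoprenoid diphosphates, squalene and lanosterol. When membranes of the endoplasmic reticulum hold little cholesterol, SCAP escorts SREBP2 to the Golgi, where proteases release the fragment that switches on the genes of the pathway. When sterols are plentiful, INSIG proteins hold SCAP and SREBP2 back, and INSIG1 is itself a target of the pathway. In macrophages sterol synthesis is known to respond to Toll-like receptor and interferon signaling.

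Promoter sequence was printed for 4 genes, since promoters of this pathway are known for a sterol regulatory element next to CCAAT boxes. The sequences come from RefSeq on GRCm38.p6, read 5′ to 3′ on the gene's strand and ending before the first transcribed base that GENCODE M21 gives. Capitals mark matches on either strand to TCACNCCAC (the sterol regulatory element core), CACGTG (the E-box) and CCAAT, which reads ATTGG on the other strand. Hmgcs1 (chr13:119690151-119690350, plus strand) and Sc5d (chr9:42264301-42264500, minus strand) are shown from 200 bases before the RefSeq start to the base before it. Mvk (chr5:114444061-114444268, plus strand) is shown over the 208 bases that part it from Mmab, a gene read in the opposite direction. Insig1 (chr5:28071162-28071361, plus strand) is shown from 250 to 51 bases before its start.
Hmgcs1: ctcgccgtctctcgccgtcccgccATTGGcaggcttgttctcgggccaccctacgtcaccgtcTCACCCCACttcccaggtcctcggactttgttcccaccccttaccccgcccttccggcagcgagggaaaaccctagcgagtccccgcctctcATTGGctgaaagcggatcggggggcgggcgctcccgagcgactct
Mvk: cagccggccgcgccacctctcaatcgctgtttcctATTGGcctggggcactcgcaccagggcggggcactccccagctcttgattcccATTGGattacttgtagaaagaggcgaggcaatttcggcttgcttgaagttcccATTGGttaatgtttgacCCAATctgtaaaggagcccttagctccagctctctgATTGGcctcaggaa
Sc5d: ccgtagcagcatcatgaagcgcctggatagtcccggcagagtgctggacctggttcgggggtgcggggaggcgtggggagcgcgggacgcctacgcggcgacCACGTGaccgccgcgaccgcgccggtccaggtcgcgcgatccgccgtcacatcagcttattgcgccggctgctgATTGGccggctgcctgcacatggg
Insig1: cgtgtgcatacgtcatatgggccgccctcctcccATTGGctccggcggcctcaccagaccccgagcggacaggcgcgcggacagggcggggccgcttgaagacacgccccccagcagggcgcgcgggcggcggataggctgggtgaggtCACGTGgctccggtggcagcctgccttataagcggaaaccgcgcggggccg

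Hmgcs1 held the only exact match to the sterol regulatory element core among the 24 genes of the set with a promoter in the table, 137 bases before its start. Over all 27025 genes with a promoter, 1.44% held that match within 250 bases before to 50 after a start. CCAAT was found in 21 of the 24 genes, against 41.1% of all genes, and Mvk had 5 matches in the stretch above. The E-box was found in 5 of the 24 (Hsd17b7, Insig1, Dhcr7, Sc5d and Scap), against 8.09%. A match is a description of these letters and no evidence of binding.

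In wild-type BMDMs, LPS+ATP lowered most of the pathway. Of the 28 genes, 15 fell and 0 rose by the rule used throughout, a limma Benjamini-Hochberg adjusted p under 0.05 together with a log2 fold change no smaller than 1 in size on the log2(FPKM + 1) scale. Over all genes tested, 11.2% fell and 8.25% rose. By the adjusted p alone, 24 genes of the set were lower and 3 higher, and 53.1% of all genes were lower. The median log2 fold change of the set was -1.06, against -0.26 for all genes tested. Fold changes of the 15 genes ran from -1.04 for Scap to -1.86 for Dhcr7. Their standard errors (SE) ran from 0.04 for Cyp51 to 0.19 for Msmo1. Median-ratio scaling, which sets aside a general shift and took the median of all genes from -0.26 to -0.01, left 7 genes that fell in wild-type. Shares of all genes under that scaling were not computed, so counts under it stand without a background. In Nlrp3-/- BMDMs, 2 genes fell (Lbr and Dhcr7) and 0 rose, where 8.21% of all genes fell and 6.64% rose. By the adjusted p alone 24 genes were lower there, beside 53.8% of all genes, and the median was -0.49 against -0.24. Under median-ratio scaling 0 genes fell in Nlrp3-/-, where Dhcr7 was at -0.87 and Lbr at -0.77. That scaling moved the fold change by over 1.5 times or turned its sign for 6 genes in wild-type and 23 in Nlrp3-/-. In Nlrp3-/- it put Hmgcs1 and Idi1 at -0.50, Stard4 at -0.44, Sqle at -0.43, Srebf2 at -0.42, Scap at -0.24, Insig2 at -0.10 and Cyp51 at -0.09, and in wild-type it put Srebf2 at -0.41. The added 1 FPKM makes these log2 values smaller than the ratios of FPKM for low genes. In bulk RNA, fewer cells of a type and less RNA per cell cannot be told apart.

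**Figure D1:**
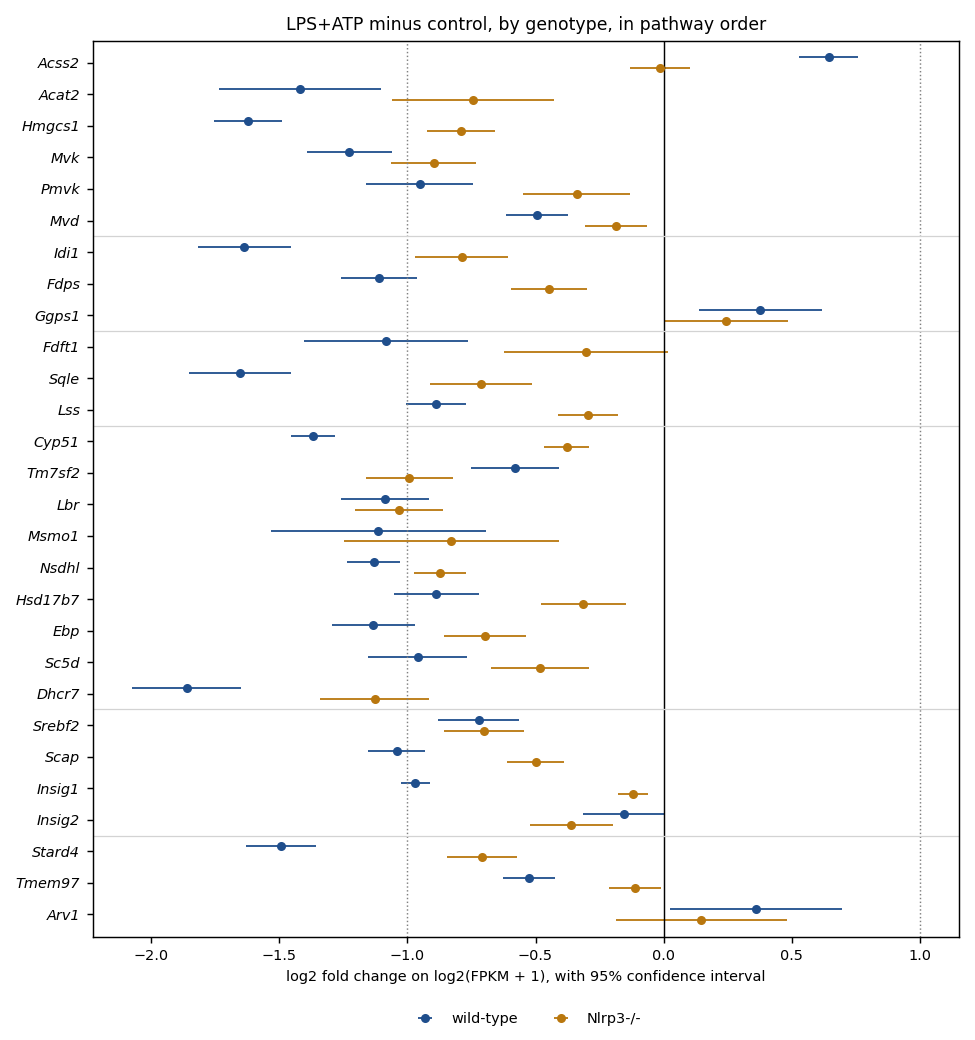
Log2 fold change of each gene with LPS+ATP against control on the log2(FPKM + 1) scale (horizontal axis, bars are 95% confidence intervals from limma, n = 3 per group), for wild-type (blue) and Nlrp3-/- (brown) BMDMs, with genes in pathway order and grey lines between the roles. Most wild-type points lie farther below 0 than the Nlrp3-/- points, and Srebf2 and Lbr nearly coincide. Acss2, Ggps1, Tm7sf2, Insig2 and Arv1 lie lower in Nlrp3-/-.

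The supply and mevalonate steps held 6 genes. Hmgcs1, the synthase that makes HMG-CoA, had FPKM of 42.5, 43.2 and 38.1 in wild-type controls and 14.0, 12.3 and 11.9 after stimulation. In Nlrp3-/- it was 57.2, 59.5 and 58.7 in controls and 33.5, 32.6 and 34.0 after stimulation. No group overlapped another, and the stimulated wild-type libraries were lowest. The log2 fold change was -1.62 (SE 0.06, limma adjusted p = 4.51e-10) in wild-type and -0.79 (SE 0.06, limma adjusted p = 3.28e-07) in Nlrp3-/-, where it missed the fold limit. Acat2, a cytosolic acetoacetyl-CoA thiolase, kept 32.8% of its control FPKM in stimulated wild-type cells and 58.5% in Nlrp3-/-. Mvk, mevalonate kinase, kept 37.1% and 50.6%. Both fell in wild-type. The next kinase, Pmvk, kept 46.9% and 77.3%, and the decarboxylase Mvd kept 69.9% and 87.4%; neither reached the fold limit in either genotype. Acss2, which makes acetyl-CoA from acetate, went the other way in wild-type. Its FPKM was 2.29, 2.20 and 2.33 in wild-type controls and 4.10, 3.98 and 4.26 after stimulation. The Nlrp3-/- libraries had 4.03, 3.54 and 3.57 in controls and 3.55, 3.82 and 3.61 after stimulation. The wild-type groups were apart and the Nlrp3-/- groups overlapped, although under median-ratio scaling the fold change in Nlrp3-/- was 0.21. Its log2 fold change was 0.64 in wild-type (SE 0.05, limma adjusted p = 5.06e-07), under the fold limit.

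Of the 3 enzymes of prenyl diphosphates, 2 fell in wild-type. Idi1, the isomerase of isopentenyl diphosphate, had FPKM of 23.6, 20.5 and 20.7 in wild-type controls and 6.42, 7.09 and 5.34 after stimulation. Its FPKM in Nlrp3-/- was 35.7, 36.0 and 35.2 in controls and 19.5, 19.8 and 21.4 after stimulation. Stimulated Nlrp3-/- libraries overlapped the wild-type controls and stood well above the stimulated wild-type libraries. The log2 fold change was -1.64 in wild-type (SE 0.08, limma adjusted p = 6.63e-09) and -0.79 in Nlrp3-/- (SE 0.08, limma adjusted p = 4.99e-06). The processed pseudogene Gm13502, which matches 22.6% of the Idi1 transcript, carried almost the same values (20.4 FPKM in wild-type controls, 5.99 in stimulated wild-type cells), so reads of these genes may have been split or shared. Fdps, farnesyl diphosphate synthase, kept 44.4% in wild-type and 72.8% in Nlrp3-/-. Ggps1, which makes geranylgeranyl diphosphate for protein prenylation rather than sterols, was at 3.07 FPKM in wild-type controls and 4.24 after stimulation, a log2 fold change of 0.38 under the fold limit.

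All 3 enzymes from farnesyl diphosphate to lanosterol were lower in stimulated wild-type cells, 2 of them past the fold limit. Sqle, squalene epoxidase and a slow step of the pathway, had FPKM of 16.0, 17.5 and 17.9 in wild-type controls and 4.49, 5.24 and 4.55 after stimulation. In Nlrp3-/- it was 25.7, 26.0 and 20.5 in controls and 13.3, 15.0 and 14.4 after stimulation. Again no group overlapped another, with stimulated wild-type libraries lowest and Nlrp3-/- controls highest. The log2 fold change was -1.65 in wild-type (SE 0.09, limma adjusted p = 1.40e-08) and -0.71 in Nlrp3-/- (SE 0.09, limma adjusted p = 2.53e-05). Fdft1, squalene synthase, kept 41.6% and 80.6%, and without the third wild-type control its log2 fold change was -0.96 and no longer passed. Its exons share 774 bases with the oppositely read Ctsb, which averaged 1731 FPKM over the 12 libraries. Whether the counting used strand is not given in the sources used here, so the Fdft1 values are uncertain. Lss, lanosterol synthase, kept 46.5% and 79.3% and stayed under the fold limit.

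After lanosterol, 6 of 9 enzymes fell in wild-type and 2 in Nlrp3-/-. Dhcr7, the reductase of 7-dehydrocholesterol at the end of the pathway, had the lowest fold change of the set. Its FPKM was 9.73, 10.7 and 8.35 in wild-type controls and 1.71, 2.33 and 1.70 after stimulation. The Nlrp3-/- libraries had 11.8, 10.5 and 11.7 in controls and 4.80, 4.69 and 4.43 after stimulation. The control groups overlapped between genotypes and the stimulated groups did not. The log2 fold change was -1.86 in wild-type (SE 0.10, limma adjusted p = 8.91e-09) and -1.13 in Nlrp3-/- (SE 0.10, limma adjusted p = 9.25e-07). Cyp51, the lanosterol demethylase, had FPKM of 29.7, 29.0 and 29.8 in wild-type controls and 10.5, 11.3 and 10.6 after stimulation. Its FPKM in Nlrp3-/- was 47.5, 44.7 and 44.0 in controls and 34.0, 34.9 and 35.0 after stimulation. The stimulated Nlrp3-/- libraries were thus all above the wild-type controls. The log2 fold change was -1.37 in wild-type (SE 0.04, limma adjusted p = 4.60e-11) and -0.38 in Nlrp3-/- (SE 0.04, limma adjusted p = 4.71e-06).

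Msmo1, the sterol methyl oxidase, kept 41.8% in wild-type and 54.8% in Nlrp3-/-, with a control library at 11.7 FPKM below the others at 21.7 and 19.2; without the highest wild-type control its log2 fold change was -0.95 and no longer passed. Nsdhl, which removes the same methyl groups, kept 41.5% and 52.6%. Hsd17b7, the ketoreductase of that step, kept 45.9% and 78.6%. The isomerase Ebp kept 42.8% and 59.6%, and the desaturase Sc5d kept 46.2% and 69.5%. Nsdhl and Ebp lie on the X chromosome. The pair of sterol C14 reductases stood apart from these. Lbr, which is also the lamin B receptor of the nuclear envelope, kept 37.6% and 44.0% and fell in both genotypes, at -0.999 and no longer past the limit in Nlrp3-/- without the third stimulated library. Tm7sf2, at 1.39 FPKM in wild-type controls, kept 43.1% in wild-type and 33.1% in Nlrp3-/-, and its exons share 532 bases with Vps51 on the same strand.

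**Figure D2:**
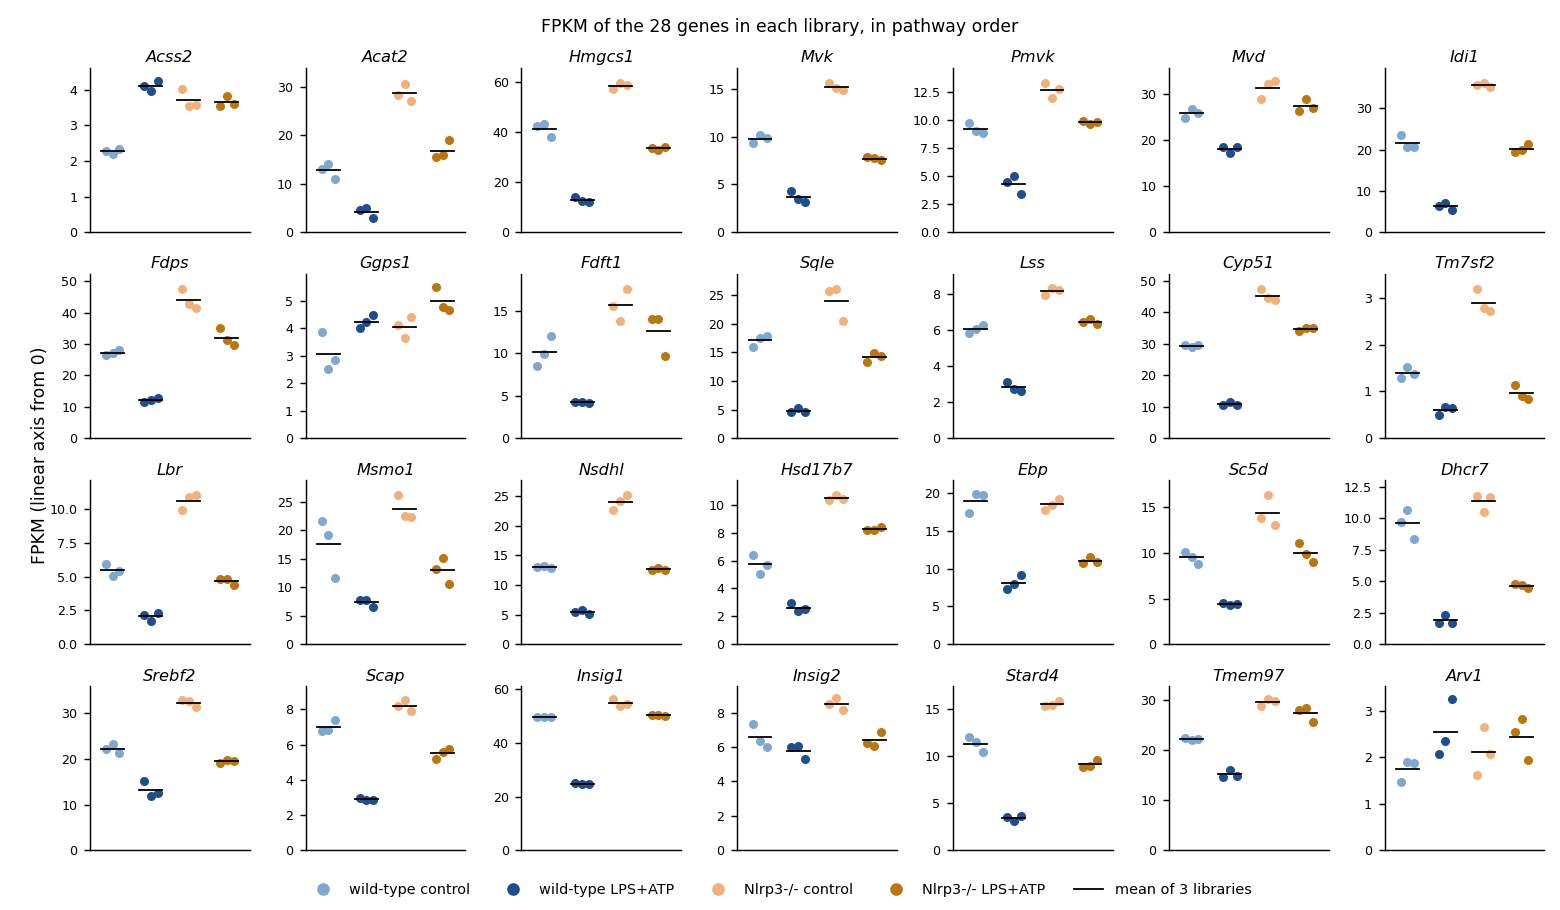
FPKM of each of the 28 genes in every library (vertical axes, linear from 0; points are libraries, lines are means of 3), with the controls in the paler and the stimulated cells in the darker shade of each genotype's color (blue wild-type, orange Nlrp3-/-). For most enzymes stimulated wild-type libraries are lowest and Nlrp3-/- controls highest, and Insig1 in stimulated Nlrp3-/- cells (50.2 to 50.3) sits beside the wild-type controls (49.5 to 49.6).

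The 4 regulators did not behave alike. Srebf2, which encodes SREBP2, had FPKM of 22.3, 23.2 and 21.4 in wild-type controls and 15.2, 11.9 and 12.5 after stimulation. In Nlrp3-/- it was 32.9, 32.7 and 31.5 in controls and 19.2, 19.9 and 19.6 after stimulation. The groups did not overlap, but both genotypes lost a like part of the control level: 59.2% was kept in wild-type and 60.3% in Nlrp3-/-. Neither change reached the fold limit (log2 fold change -0.72 with limma adjusted p = 2.66e-06, and -0.70 with 4.07e-06).

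Scap, the escort protein, had FPKM of 6.77, 6.80 and 7.41 in wild-type controls and 2.94, 2.85 and 2.84 after stimulation. The Nlrp3-/- libraries had 8.17, 8.51 and 7.90 in controls and 5.16, 5.60 and 5.76 after stimulation. It fell in wild-type (log2 fold change -1.04, SE 0.05, limma adjusted p = 5.10e-09) and in Nlrp3-/- stayed under the fold limit at -0.50.

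Insig1, the sterol-regulated retention protein, had FPKM of 49.6, 49.6 and 49.5 in wild-type controls and 25.1, 24.6 and 24.8 after stimulation. Its FPKM in Nlrp3-/- was 56.2, 53.7 and 54.4 in controls and 50.3, 50.3 and 50.2 after stimulation. Stimulated wild-type libraries alone were low, and 50.1% of the control level was kept there against 91.9% in Nlrp3-/-. The log2 fold change was -0.97 in wild-type (SE 0.03, limma adjusted p = 2.66e-11), just short of the fold limit, and -0.12 in Nlrp3-/- (limma adjusted p = 0.00145), the latter turning to 0.17 under median-ratio scaling.

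Insig2, a retention protein known as less dependent on SREBP2, had FPKM of 7.34, 6.36 and 6.02 in wild-type controls and 6.02, 6.04 and 5.30 after stimulation. In Nlrp3-/- it was 8.49, 8.84 and 8.15 in controls and 6.25, 6.07 and 6.88 after stimulation. The wild-type groups overlapped, with a log2 fold change of -0.16 (limma adjusted p = 0.0719) that turned to 0.13 under median-ratio scaling. The Nlrp3-/- groups were apart, at -0.36 (limma adjusted p = 0.000913), or -0.10 under median-ratio scaling.

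Among the transport and response genes, Stard4, a soluble sterol carrier, had FPKM of 12.1, 11.5 and 10.5 in wild-type controls and 3.51, 3.06 and 3.62 after stimulation. The Nlrp3-/- libraries had 15.4, 15.5 and 15.9 in controls and 8.87, 8.94 and 9.65 after stimulation. The groups did not overlap. It fell in wild-type (log2 fold change -1.49, SE 0.06, limma adjusted p = 1.11e-09) and in Nlrp3-/- was at -0.71. Tmem97, the sigma-2 receptor, kept 68.2% in wild-type and 92.4% in Nlrp3-/-. Arv1, a protein of sterol movement from the endoplasmic reticulum, was low (1.75 FPKM in wild-type controls), with log2 fold changes of 0.36 and 0.15 under the fold limit.

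Nlrp3-/- controls already carried more of these transcripts than wild-type controls. Acat2 alone was higher past the fold limit, at 28.7 FPKM against 12.7 in wild-type controls (log2 fold change 1.12, SE 0.14, limma adjusted p = 5.96e-05). Of the set 0 genes were lower, where 6.02% of all genes were higher and 0.689% lower. By the adjusted p alone 24 of 28 were higher, beside 33.3% of all genes. The median was 0.48 against 0.09. The set was chosen with earlier results of these data known, so these counts and p-values describe it and are no independent test. Median-ratio scaling moved 12 of the 28 values by over 1.5 times or turned them, with a median of 0.33. Acat2 matches the annotated gene Acat3 over 65.6% of its transcript, so the assignment of its reads is uncertain, and under median-ratio scaling its fold change was 0.97. Lbr, Nsdhl and Hsd17b7 followed, at 0.84, 0.83 and 0.78. Insig1 was at 0.14, and at -0.01 under median-ratio scaling. Ebp was at -0.03 with overlapping groups.

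With LPS+ATP, the gap between the genotypes was wider. Here 12 of 28 genes were higher in Nlrp3-/- by the rule used throughout and 0 lower, beside 4.48% and 0.57% of all genes, and the median was 0.97 against 0.11. The choice of the set rests on this contrast, so nothing is read from these counts. The 12 were Acat2, Hmgcs1, Pmvk, Idi1, Fdps, Fdft1, Sqle, Cyp51, Nsdhl, Hsd17b7, Sc5d and Stard4. The ratio of mean FPKM was 4.01 for Acat2, 3.22 for Idi1, 3.21 for Cyp51, 3.14 for Hsd17b7 and 2.99 for Sqle. Insig1, at 2.03, and Lss, at 2.30, lay just short of the fold limit on the log2(FPKM + 1) scale (0.99 and 0.97), whereas Sc5d (1.03) and Pmvk (1.04) lay just past it. Without the third stimulated wild-type library Pmvk was at 0.91, without the first stimulated Nlrp3-/- library Sc5d was at 0.95, and under median-ratio scaling 9 genes passed, without Pmvk, Nsdhl and Sc5d. The ratio of mean FPKM was 1.48 for Srebf2, whose log2 fold change of 0.54 was under the fold limit. By the same ratio Insig2 (1.11), Ggps1 (1.18) and Arv1 (0.956) were close to level.

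**Figure D3:**
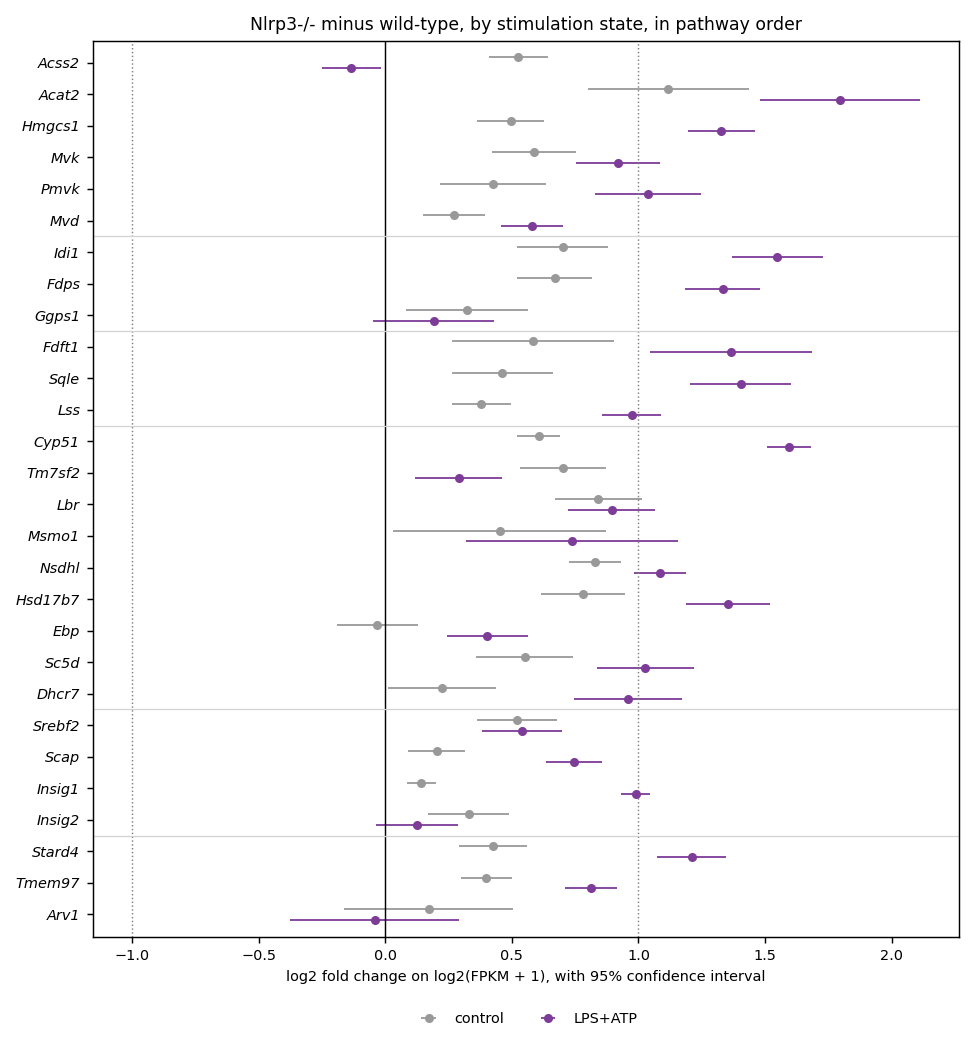
Log2 fold change of Nlrp3-/- against wild-type on the log2(FPKM + 1) scale (horizontal axis, bars are 95% confidence intervals from limma, n = 3 per group), in control (grey) and with LPS+ATP (purple), with genes in pathway order. The purple points of most enzymes, Scap, Insig1 and Stard4 lie to the right of the grey ones, and those of Srebf2 and Lbr nearly coincide. Those of Acss2, Ggps1, Tm7sf2, Insig2 and Arv1 lie to the left.

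The difference between the stimulation effects (Nlrp3-/- minus wild-type) is the same quantity as the widening of the gap and is likewise given as a description. By the rule used throughout 0 genes of the set passed in either direction, beside 0.721% of all genes above 0 and 1.43% below. It lay above 0 for 23 of the 28 genes, and its median was 0.51 against 0.02 for all genes. Cyp51 had the largest, at 0.99 (95% confidence interval 0.87 to 1.11), followed by Sqle at 0.94, Idi1 and Insig1 at 0.85 and Hmgcs1 at 0.83. Fdft1 and Stard4 were at 0.78, Dhcr7 at 0.73, Acat2 at 0.68, Fdps at 0.66, Pmvk at 0.61, Lss at 0.59, Hsd17b7 at 0.57 and Scap at 0.54. Sc5d, Ebp, Tmem97, Mvk, Mvd and Nsdhl lay between 0.26 and 0.48. Acss2, at -0.66, and Tm7sf2, at -0.41, were the lowest. Srebf2 was at 0.02, with an interval from -0.20 to 0.24, and Lbr at 0.05, with an interval from -0.19 to 0.30. Msmo1 was at 0.29 with an interval from -0.31 to 0.88, too wide to place it with either.

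Summed over the 21 enzymes, FPKM ran from 288 to 302 in wild-type controls and from 121 to 127 in stimulated wild-type libraries. The sums were 437 to 448 in Nlrp3-/- controls and 284 to 293 in stimulated Nlrp3-/- libraries. The stimulated null libraries therefore stood near the wild-type controls, and 14 of the 28 genes had a mean at or above the wild-type control mean. The share of the control FPKM that stimulated cells kept was larger in Nlrp3-/- for 23 genes and smaller for 5, with medians of 68.3% and 42.9%. The higher starting level and the smaller loss both enter the summed FPKM of the enzymes. The counts of 14 and 23 genes involve stimulated libraries on which the choice of the set rests. They describe the set and test nothing, and their shares over all genes were not computed.

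Genes outside the set gave context. The first list held the machinery that cleaves SREBPs and degrades endoplasmic reticulum proteins (11 genes of which 10 were tested). It also held Srebf1, which is counted in the fatty acid list too. This list had 0 calls in any contrast, and the branches that use isoprenoids for other ends (12 of 13 tested) had 0 calls as well. Over all genes, from 0.57% (lower in Nlrp3-/- with LPS+ATP) to 11.2% (lower with stimulation in wild-type) were called in a given direction and contrast. By the limma adjusted p alone, 8 and 7 genes of these lists passed with stimulation in wild-type. Of these, 6 and 5 were lower, where 53.1% of all genes were lower, and 2 in each list were higher. The proteases Mbtps1 and Mbtps2 of the first list were among the 6. Mbtps1 went from 8.68 to 5.40 FPKM in wild-type and from 10.4 to 8.60 in Nlrp3-/-. Mbtps2 went from 5.33 to 2.88 and from 4.18 to 2.88. Between the stimulated genotypes Mbtps1 had a log2 fold change of 0.58, under the fold limit, and Mbtps2 one of 0.0009. In the fatty acid list, 6 of 11 tested genes fell in wild-type with stimulation (11.2% of all genes) and 1 in Nlrp3-/- (8.21%), while 3 were higher in Nlrp3-/- controls (6.02%) and 5 in stimulated Nlrp3-/- cells (4.48%). Fasn, fatty acid synthase, went from 13.0 to 5.61 FPKM in wild-type and from 19.6 to 17.3 in Nlrp3-/-. Ch25h, whose product 25-hydroxycholesterol is known to hold back SREBP2 processing, rose in both genotypes, from 1.02 to 46.4 FPKM in wild-type and from 3.16 to 51.9 in Nlrp3-/-. Abcg1, a sterol efflux transporter, was at 18.3 and 17.2 FPKM in wild-type and fell from 12.5 to 5.41 in Nlrp3-/-. Abca1 went the other way, from 26.5 to 40.4 FPKM in wild-type and from 22.4 to 28.7 in Nlrp3-/-, under the fold limit. Apoe went from 944 to 533 and from 1035 to 869. Of the 11 oxysterol, esterification and efflux genes, 1 rose and 2 fell in wild-type (8.25% and 11.2% of all genes). In Nlrp3-/- 1 rose and 3 fell (6.64% and 8.21%).

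The 10 other genes whose log2(FPKM + 1) over the 12 libraries followed the mean of the set most closely had Pearson r from 0.9917 to 0.996, as a description over libraries that form 4 groups. They were Sptbn1, Trf, G3bp1, Npm1, Gm13502, Ext2, Gcsh, Wisp2, Cntln and Mmab. Mmab, an adenosyltransferase for cobalamin, shares the stretch printed above with Mvk and went from 4.91 to 2.60 FPKM in wild-type and from 7.91 to 5.61 in Nlrp3-/-. Within the set, the r of each gene with the mean of the others was 0.785 or more except for Acss2 (-0.28), Ggps1 (-0.10) and Arv1 (-0.34).

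**Figure D4:**
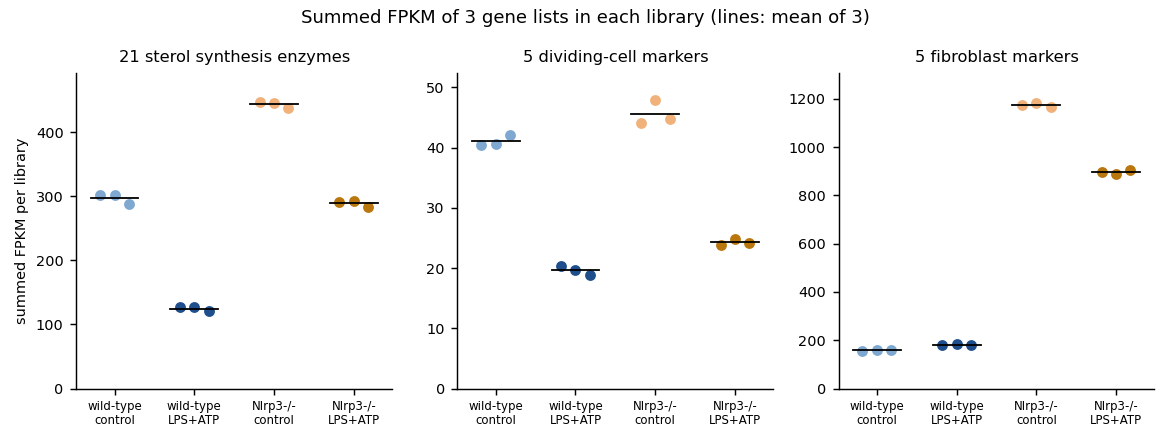
Summed FPKM in each library (vertical axes, linear from 0; points are libraries, lines are means of 3) for the 21 enzymes, 5 markers of dividing cells and 5 fibroblast markers. The enzymes of stimulated Nlrp3-/- libraries lie near the wild-type controls, the dividing-cell sums are lower after stimulation in both genotypes, and the fibroblast sums separate the genotypes.

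The libraries also differed in other markers, not all of which moved in the direction of the set. The 5 markers of dividing cells summed to 40.5 to 42.1 FPKM in wild-type controls and 18.8 to 20.3 after stimulation, and to 44.1 to 47.9 and 23.9 to 24.8 in Nlrp3-/-. Of them, 4 of 5 fell in wild-type (11.2% of all genes) and 2 in Nlrp3-/- (8.21%). Mki67 was at 15.8 and 16.1 FPKM in wild-type and 16.0 and 11.4 in Nlrp3-/-, and Top2a at 9.73 and 1.47 FPKM in wild-type and 14.1 and 6.18 in Nlrp3-/-. The 5 fibroblast markers summed to 157 to 161 and 180 to 183 FPKM in wild-type, and to 1164 to 1180 and 890 to 905 in Nlrp3-/-. The neutrophil markers (6 genes) summed to 229 to 261 and 91.0 to 107 FPKM in wild-type, and to 1366 to 1414 and 415 to 442 in Nlrp3-/-. Their part in the results above was not tested. Transcripts of Xist (53.8 FPKM in Nlrp3-/- controls, 0.028 in wild-type controls) and of Y-linked genes (Ddx3y at 0 and 9.10) split the libraries by genotype. Donor sex and genotype therefore cannot be told apart for any gene of the set, Nsdhl and Ebp on the X chromosome included. Among the 15 genes with no shared exon bases and no near copy, 7 fell with stimulation in wild-type (11.2% of all genes) and 1 in Nlrp3-/- (8.21%). Between the stimulated genotypes 6 of them were higher in Nlrp3-/- (4.48%). The choice of the set rests on that contrast, so nothing is read from this last count.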

How the data were processed

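Total RNA of the BMDMs was sequenced, and the authors deposited a table of FPKM (fragments per kilobase of transcript, scaled to library size) per gene and library. The submitters' processing notes list the build GRCm39, whereas the aligner, the counter, their versions and the strand setting are not given in the sources used here. FPKM carries no depth in reads. The steps of low values put the deepest library at 1.22 times the shallowest. The sum of FPKM ran from 283278 to 299393. Libraries within a group correlated at 0.990 to 0.993. Groups and replicate numbers came from the labels, and 0 columns of per-library values were unused. The labels do not say that replicates were separate cultures or mice, so p-values measure the spread between these libraries, which may be technical.

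The 28 genes, the other gene lists and the tests were chosen with earlier results of these data known. Log2(FPKM + 1) was fitted with limma 3.58.1 (R 4.3.3) over all 12 libraries with 4 group means and a trend in the variance, and p-values were adjusted by Benjamini-Hochberg over all 12622 genes tested. Every gene of the set is given a value. Values in each library are given for the gene of each role with the largest change with stimulation in wild-type or the largest interaction of genotype and stimulation, for the 4 regulators, and for Acss2, which was added after its values were seen. The script was tested on simulated data. Positions, shared exons and near copies came from GENCODE M21 (GRCm38, blastn 2.17.0+), and promoters from RefSeq (GRCm38.p6), in which 24 of 28 symbols matched. No coordinate of the deposited table was used. Alternatives were another pseudocount, filters on low values, median-ratio scaling, TPM, no fold limit, no variance trend, the compared groups alone, the replicate number as a block, and leaving out each library.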

Additional observations from a re-analysis of the deposited data

How the results depend on the processing

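Median-ratio scaling shifted the log2 fold change by a median over all genes of 0.27 (stimulation in wild-type), 0.25 (stimulation in Nlrp3-/-), -0.13 (genotype in control) and -0.16 (genotype with LPS+ATP). Under it 7 genes fell in stimulated wild-type cells (median -0.79), 0 in Nlrp3-/- (median -0.23) and 0 were higher in Nlrp3-/- controls (median 0.33), while the median with LPS+ATP was 0.82. Signs turned under it for Insig2 (0.13) with stimulation in wild-type, for Acss2 (0.21), Mvd (0.10), Insig1 (0.17) and Tmem97 (0.17) with stimulation in Nlrp3-/-, for Insig1 (-0.0106) between controls, for Insig2 (-0.0406) between stimulated genotypes and for Srebf2 (-0.0069) in the interaction. With a pseudocount of 0.1 the medians were -1.185 (stimulation in wild-type), 1.16 (genotype with LPS+ATP) and 0.63 (interaction), 20 genes fell in stimulated wild-type and 3 in stimulated Nlrp3-/- cells, 17 were higher in Nlrp3-/- with LPS+ATP and 2 in controls, and 3 passed in the interaction (Sqle, Cyp51 and Dhcr7). With TPM the medians were 1.13 (genotype with LPS+ATP) and 0.62 (interaction), the counts with stimulation and between stimulated genotypes were 17, 3 and 17, 2 genes passed in the interaction, and Acss2 was at 0.0408 with stimulation in Nlrp3-/-. A filter of FPKM of at least 5 gave medians of -0.60 (stimulation in Nlrp3-/-) and 0.58 (interaction). With no fold limit 24 genes were lower (53.1% of all genes) and 3 higher in stimulated wild-type cells. In stimulated Nlrp3-/- cells 24 were lower (53.8%), and in Nlrp3-/- controls 24 were higher (33.3%). Between stimulated genotypes 24 were higher, and in the interaction 20 lay above and 2 below 0. The counts of these last contrasts test nothing about the set, and their shares over all genes were not computed. Nor were shares computed for the counts under median-ratio scaling, the pseudocount of 0.1, TPM or the other alternative fits. The shifts between settings follow from the settings' construction, and other causes were not tested.

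Leaving out 1 library at a time, the genes that fell in stimulated Nlrp3-/- cells numbered 1 to 3 (1 without Nlrp3-/- LPS+ATP replicate 3, where Lbr was at -0.999, and 3, with Tm7sf2, without Nlrp3-/- control replicate 2 or 3 or Nlrp3-/- LPS+ATP replicate 1), and those past both limits in the interaction 0 to 1 (Cyp51, without replicate 2 of either wild-type group or replicate 1 of either Nlrp3-/- group). Signs turned, with the range over all such fits, for Acss2 with stimulation in Nlrp3-/- (-0.0419 to 0.0332, above 0 without replicate 1 of either Nlrp3-/- group), Ebp between controls (-0.0924 to 0.000646, above 0 without wild-type control replicate 2), Arv1 between stimulated genotypes (-0.141 to 0.0945, above 0 without replicate 3 of either stimulated group), Lbr in the interaction (-0.0267 to 0.113, below 0 without wild-type LPS+ATP replicate 2) and Srebf2 in the interaction (-0.0471 to 0.119, below 0 without wild-type control replicate 2 or wild-type LPS+ATP replicate 2 or 3). Single genes whose call moved in fits without 1 library also include Msmo1, Fdft1, Pmvk, Sc5d, Tm7sf2, Mvk, Lss and Dhcr7, each near the fold limit.

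Same-numbered libraries did not deviate together (correlations from -0.0565 to 0.0528, 0 of 18 pairs over 0.1). With the replicate number as a block the counts were 15 (stimulation in wild-type), 2 (stimulation in Nlrp3-/-), 1 (genotype in control), 12 (genotype with LPS+ATP) and 0 (interaction).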
